A study of Mus musculus with 6 samples.

Results

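Captured, methylated DNA was examined in 3 clusters of zinc finger genes of the mouse genome (build mm10): chr2:175000001-177900000, chr4:145000001-147900000 and chr13:65000001-68000000. The members are all 50 bp windows of these intervals that carried a value in any of 4 MiGS libraries, and a window without a value in a library was taken as 0. There were 4400 such windows of 2915907 on chromosomes 1 to 19: 451 in the chromosome 2 cluster, 2172 in the chromosome 4 cluster and 1777 in the chromosome 13 cluster. Single libraries held 2979 (naive replicate 1), 3513 (naive replicate 2), 3539 (peak replicate 1) and 3216 (peak replicate 2) of them.

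MiGS sequences DNA fragments bound by a methyl-CpG binding domain, so a value reflects how much methylated, CpG-containing DNA was captured at a place. Microglia, the resident macrophages of the central nervous system, were sorted on F4/80 and CD45 from homogenized brains and spinal cords after a Percoll gradient. The conditions were naive mice and peak EAE (experimental autoimmune encephalomyelitis), which models multiple sclerosis and was induced at 24 to 28 weeks of age with peptide 35-55 of myelin oligodendrocyte glycoprotein; peak was the second day on which the clinical score stopped rising. The induced mice were Ccr2rfp/+::Cx3cr1gfp/+ on C57Bl/6, with 1 Ccr2 allele replaced by a red and 1 Cx3cr1 allele by a green fluorescent reporter. For the naive mice the labels give the C57Bl/6 background, and neither age nor reporter alleles apart from that shared protocol. Each condition pooled the cells of 30 mice, DNA and RNA came from the same material, and each gave 2 MiGS libraries and 1 RNA-seq library.

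KRAB zinc finger proteins bind DNA through tandem zinc fingers and recruit the corepressor TRIM28 through their KRAB domain, and TRIM28 in turn brings the histone methyltransferase SETDB1 and heterochromatin protein 1. Many of them silence transposable elements, and their genes lie in large arrays that grew by tandem duplication, so neighbouring genes can be close copies of each other. In several cell types the 3′ exons that encode the fingers are known for heterochromatin marks. Here a gene was taken as a zinc finger gene by its symbol (53 of the 278 genes in the 3 intervals: 7 on chromosome 2, 18 on chromosome 4 and 28 on chromosome 13); whether each encodes a KRAB domain was not examined, and predicted genes with Gm symbols were not taken.

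Promoter sequences show what kind of DNA the capture could act on in these arrays. The 250 bases before a start site are given 5′ to 3′ from RefSeq (build GRCm38.p6, the same assembly as mm10), with each CG, the dinucleotide that the capture reads when methylated, in capitals (CG reads the same on both strands). Zfp967 and Zfp968 stand for the chromosome 2 cluster, whose promoters are near copies. Zfp982 and Zfp933 carried much gene body signal on chromosome 4, and Zfp748 and Zfp874b were among the RNA-seq genes named by abundance or by ratio on chromosome 13. Zfp993 and Zfp708 were added after their values were seen, because windows with signal lie in these promoters.
Zfp967 (chr2:176520754-176521003, plus strand): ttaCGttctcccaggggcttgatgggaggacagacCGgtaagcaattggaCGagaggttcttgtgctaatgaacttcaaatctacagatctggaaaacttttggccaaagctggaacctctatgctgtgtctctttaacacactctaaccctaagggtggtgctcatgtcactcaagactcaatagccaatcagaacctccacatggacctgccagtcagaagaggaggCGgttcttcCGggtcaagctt
Zfp968 (chr2:175372186-175372435, plus strand): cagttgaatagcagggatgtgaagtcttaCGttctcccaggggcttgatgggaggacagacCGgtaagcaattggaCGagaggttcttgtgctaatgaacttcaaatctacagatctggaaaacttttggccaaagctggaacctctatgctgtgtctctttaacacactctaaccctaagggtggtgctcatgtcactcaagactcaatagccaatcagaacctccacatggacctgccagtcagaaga
Zfp982 (chr4:147442864-147443113, plus strand): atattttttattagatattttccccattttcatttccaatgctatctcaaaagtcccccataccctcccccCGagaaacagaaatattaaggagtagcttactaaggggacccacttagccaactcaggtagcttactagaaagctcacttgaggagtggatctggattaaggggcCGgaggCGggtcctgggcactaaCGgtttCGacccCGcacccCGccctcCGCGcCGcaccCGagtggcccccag
Zfp933 (chr4:147848419-147848668, minus strand): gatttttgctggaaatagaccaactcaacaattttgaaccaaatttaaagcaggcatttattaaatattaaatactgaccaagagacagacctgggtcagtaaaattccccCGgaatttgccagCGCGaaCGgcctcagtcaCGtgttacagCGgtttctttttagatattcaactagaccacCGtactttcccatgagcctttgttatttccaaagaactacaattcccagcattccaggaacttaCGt
Zfp993 (chr4:146512599-146512848, plus strand): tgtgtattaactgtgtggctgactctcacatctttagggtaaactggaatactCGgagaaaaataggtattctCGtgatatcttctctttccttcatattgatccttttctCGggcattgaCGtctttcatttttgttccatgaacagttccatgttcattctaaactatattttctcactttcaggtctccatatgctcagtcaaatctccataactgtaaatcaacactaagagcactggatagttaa
Zfp748 (chr13:67553153-67553402, minus strand): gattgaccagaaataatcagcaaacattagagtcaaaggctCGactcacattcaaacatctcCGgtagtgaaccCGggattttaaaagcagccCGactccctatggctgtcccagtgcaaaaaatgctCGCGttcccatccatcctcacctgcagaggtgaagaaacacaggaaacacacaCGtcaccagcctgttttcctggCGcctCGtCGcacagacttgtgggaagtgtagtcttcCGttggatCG
Zfp874b (chr13:67484254-67484503, minus strand): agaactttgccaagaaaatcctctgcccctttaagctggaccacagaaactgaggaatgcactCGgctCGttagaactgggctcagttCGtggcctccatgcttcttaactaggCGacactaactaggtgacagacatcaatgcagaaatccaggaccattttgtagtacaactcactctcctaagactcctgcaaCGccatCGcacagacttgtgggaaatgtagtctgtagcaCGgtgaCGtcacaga
Zfp708 (chr13:67097977-67098226, minus strand): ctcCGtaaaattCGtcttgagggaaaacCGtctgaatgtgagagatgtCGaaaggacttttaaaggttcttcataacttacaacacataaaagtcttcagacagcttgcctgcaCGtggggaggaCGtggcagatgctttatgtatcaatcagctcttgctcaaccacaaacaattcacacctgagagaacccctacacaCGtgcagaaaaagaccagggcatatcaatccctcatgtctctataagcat

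Of the 53 zinc finger genes, 43 matched the promoter table with 47 start sites. The sequences of Zfp967 and Zfp968 share an unbroken run of 224 bases, shifted by the position of the annotated start. Zfp966 and Zfp967 are identical over all 250 bases, and the 15 pairs among the 6 matched chromosome 2 genes share runs of 144 to 250 bases. Counted as stretches of 36 bases on either strand that also occur in the promoter of another gene, 6 of 6 chromosome 2 promoters shared at least 50% of their stretches, against 4 of 16 on chromosome 4 and 5 of 25 on chromosome 13. Promoters outside the clusters did so in 9.73% of cases. Promoters of 2 genes that overlap in the genome, such as those of Zfp65 and Zfp85os on chromosome 13, also count as shared. These shares are therefore not a measure of duplication alone.

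The cluster promoters held fewer CG dinucleotides than those of zinc finger genes elsewhere. The median over the 300 bases of a table entry was 5 on chromosome 2, 4.5 on chromosome 4 and 8 on chromosome 13, against 16 for 436 promoters of zinc finger genes elsewhere and 7 for all 31395 promoters, of which 94.8% hold at least 1 CG. At least 10 CG were present in 17.0% of the cluster zinc finger promoters, 71.3% of zinc finger promoters elsewhere and 44.0% of all promoters. A window with signal overlapped 4 of 47 cluster zinc finger promoters (8.51%), 39 of 436 elsewhere (8.94%) and 16.1% of all promoters.

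Those 4 promoters belong to 3 genes. The distal start of Zfp708, whose protein is known to silence a family of retrotransposons, had summed values of 21.6 and 4.65 in naive replicates 1 and 2 and 45.5 and 15.5 in peak replicates 1 and 2. That start lies within Rslcan18, and its signal is also part of the values of that gene. The promoter of Zfp993 had 22.7 and 17.4 against 22.4 and 3.27, and it lies within Zfp981, so its signal is also part of the values of Zfp981. The first start of Zfp982, with 11 CG in the sequence above, had 0 and 6.97 against 11.6 and 2.45, and a second start had 1.14 and 0 against 19.04 and 10.6. Naive and peak values overlapped at the Zfp708 and Zfp993 promoters and at the first Zfp982 start, and did not at its second. The promoter of Zfp748, with 12 CG in the sequence above, had no window with signal in any library, though the gene itself had some.

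Before the clusters are compared, the libraries themselves need a word. Reads summed over windows ranged from 30424742 to 43970332 per library, and 359 windows with over 2000 reads took 43.2% to 56.0% of them; 0 of these windows lie in the clusters. Naive replicate 2 had the highest and peak replicate 1 the lowest values in most strongly captured places described here. RNA-seq totals were 31282093 naive and 36561934 peak counts. Microglia markers were abundant in both (8 of 8 detected, 1270398 and 912165 counts in sum). The 7 monocyte markers summed to 652 naive and 3054 peak counts, the 4 T cell markers to 5 and 64 with 3 of 4 at 0 in the naive library, 5 astrocyte markers to 17660 and 10788, 3 matched oligodendrocyte markers to 3204 and 3550 and 4 neuron markers to 153 and 207. The part of these other cells in the differences between conditions was not tested, and in such bulk samples fewer cells of a type and less RNA per cell cannot be told apart.

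All 3 clusters held fewer captured windows per Mb than the rest of their chromosomes, in each of the 4 libraries. The chromosome 2 cluster had 107 and 126 windows per Mb in naive and 126 and 110 in peak libraries, where the rest of chromosome 2 had 785 and 835 against 994 and 817. This is a ratio of 0.137 ± 0.0101 (SD, n = 4 libraries). On chromosome 4 the cluster had 539 and 598 against 614 and 557 windows per Mb, and the rest 858 and 883 against 1064 and 886 (ratio 0.628 ± 0.0412). On chromosome 13 the values were 368 and 471 against 465 and 427, and 793 and 844 against 1008 and 828 in the rest (0.50 ± 0.0462). The ratios of the 3 clusters did not overlap: the lowest was 0.577 on chromosome 4, and chromosome 13 ran from 0.461 to 0.558 and chromosome 2 from 0.126 to 0.151.

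The summed value per Mb set the clusters apart in another way. Relative to the rest of its chromosome, the chromosome 2 cluster had 0.176 and 0.287 in naive and 0.103 and 0.183 in peak libraries (mean 0.187 ± 0.0759). The chromosome 13 cluster had 0.410 and 0.540 against 0.372 and 0.494 (0.454 ± 0.0766). On chromosome 4 the ratio lay on both sides of 1, with 0.906 and 1.39 against 0.649 and 0.988 (0.982 ± 0.306). Leaving out naive replicate 1 or peak replicate 1 moved that mean to 1.01 or 1.09, so no direction is given for it. The chromosome 4 windows were fewer but higher: the mean value of a window with signal was 1.44 and 2.05 times that of the rest in naive and 1.12 and 1.57 times in peak libraries. By this mean, chromosome 13 windows were slightly lower than the rest in all 4 libraries (0.883, 0.968, 0.807 and 0.956). Chromosome 2 windows were higher in all libraries but peak replicate 1 (1.29, 1.91, 0.816 and 1.36). The median chromosome 13 window equalled that of the rest in naive replicate 1 (4.54) and peak replicate 2 (4.08). It was higher in naive replicate 2 (4.65 against 3.48) and lower in peak replicate 1 (4.14 against 4.97).

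**Figure D1:**
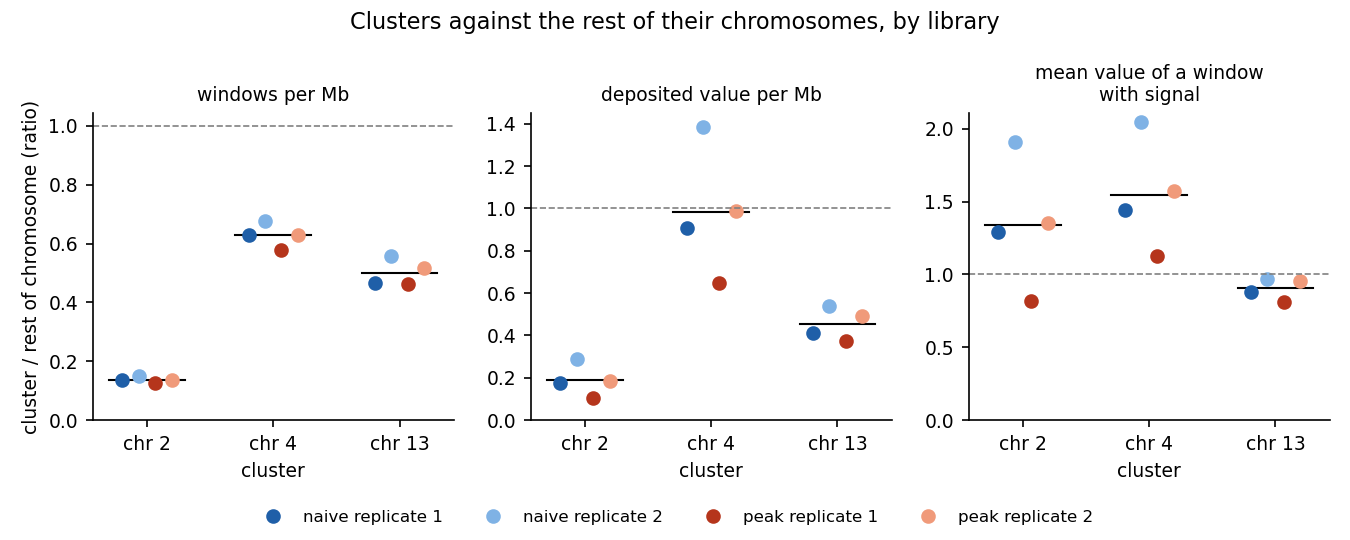
Ratio of each cluster to the rest of its chromosome (vertical axis) for windows per Mb, deposited value per Mb and mean value of a window with signal, by cluster (horizontal axis); points are the 4 libraries, black lines their means, and the dashed line marks equality. The windows per Mb lie below 1 throughout, and the value per Mb on chromosome 4 spreads from 0.649 to 1.39.

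Captured DNA in the clusters was found repeatedly at the same places. Of the chromosome 2 members 53.4% carried a value in all 4 libraries, of those on chromosome 4 54.4% and on chromosome 13 45.1%, against 43.2%, 45.9% and 43.1% in the rest of each chromosome. Signal came in runs of neighbouring windows with a median of 4 windows in every cluster and library, the same as in the rest of each chromosome. The longest runs in the clusters covered 1250 to 1500 bp, against 1350 to 3650 bp in the rest. These are maxima over 62 to 390 runs against 21093 to 40855, so they cannot be compared for length. Runs of 10 or more windows made up a larger share than in the rest on chromosomes 2 and 4 in all 4 libraries. In naive replicate 1 the shares were 6.45% against 3.71% and 9.77% against 4.46%. The chromosome 2 share rests on 4 runs per library. On chromosome 13 the cluster share was larger in naive replicate 1 alone.

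A large stretch of the chromosome 2 cluster carried no captured window at all. Of its 29 bins of 100 kb, 16 had no window in any library (55.2%), and 15 of these were consecutive, chr2:175200001-176700000, a length of 1.5 Mb. In the rest of chromosome 2, 0 of 1761 bins were without a window. The chromosome 4 cluster had 4 such bins of 29 (13.8%), none of them adjacent, against 14 of 1505 in the rest (0.930%), and the chromosome 13 cluster 0 of 30 against 1 of 1144. Outside the clusters 94 of 23957 bins (0.392%) had no window, and the longest run of them was 9 bins.

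The 1.5 Mb stretch is not free of genes. It holds 27 annotated genes, 17 of them protein coding, among them Zfp968, Zfp965, Zfp966, Zfp968-ps, Zfp967 and Zfp973. Of the 27 genes, 23 matched the RNA-seq table, and all 23 had 10 or fewer counts over both libraries, 19 of them 0 in both. Of the 4 empty bins on chromosome 4, those starting at 145900001 and 146300001 held no annotated gene, and the other two held several genes, among them Znf41-ps and Zfp993. Of the promoters in stretches without a window, 22 of 24 shared at least 50% of their 36-base stretches with another gene's promoter (91.7%). Other cluster promoters did so in 37 of 119 cases (31.1%). Overlapping promoters count as shared in both sets. How reads that match several places were treated is not stated by the labels or notes, and its part in the empty stretches was not tested; a place without a value is therefore not described as unmethylated.

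Set against the rest using only bins with a window in any library, a comparison added after the data were seen, the windows per Mb ratio was 0.306 ± 0.0226 on chromosome 2, 0.722 ± 0.0473 on chromosome 4 and 0.50 ± 0.0462 on chromosome 13. In all 4 libraries the 3 ratios stayed below 1. The corresponding value per Mb ratios were 0.418, 1.13 and 0.454.

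**Figure D2:**
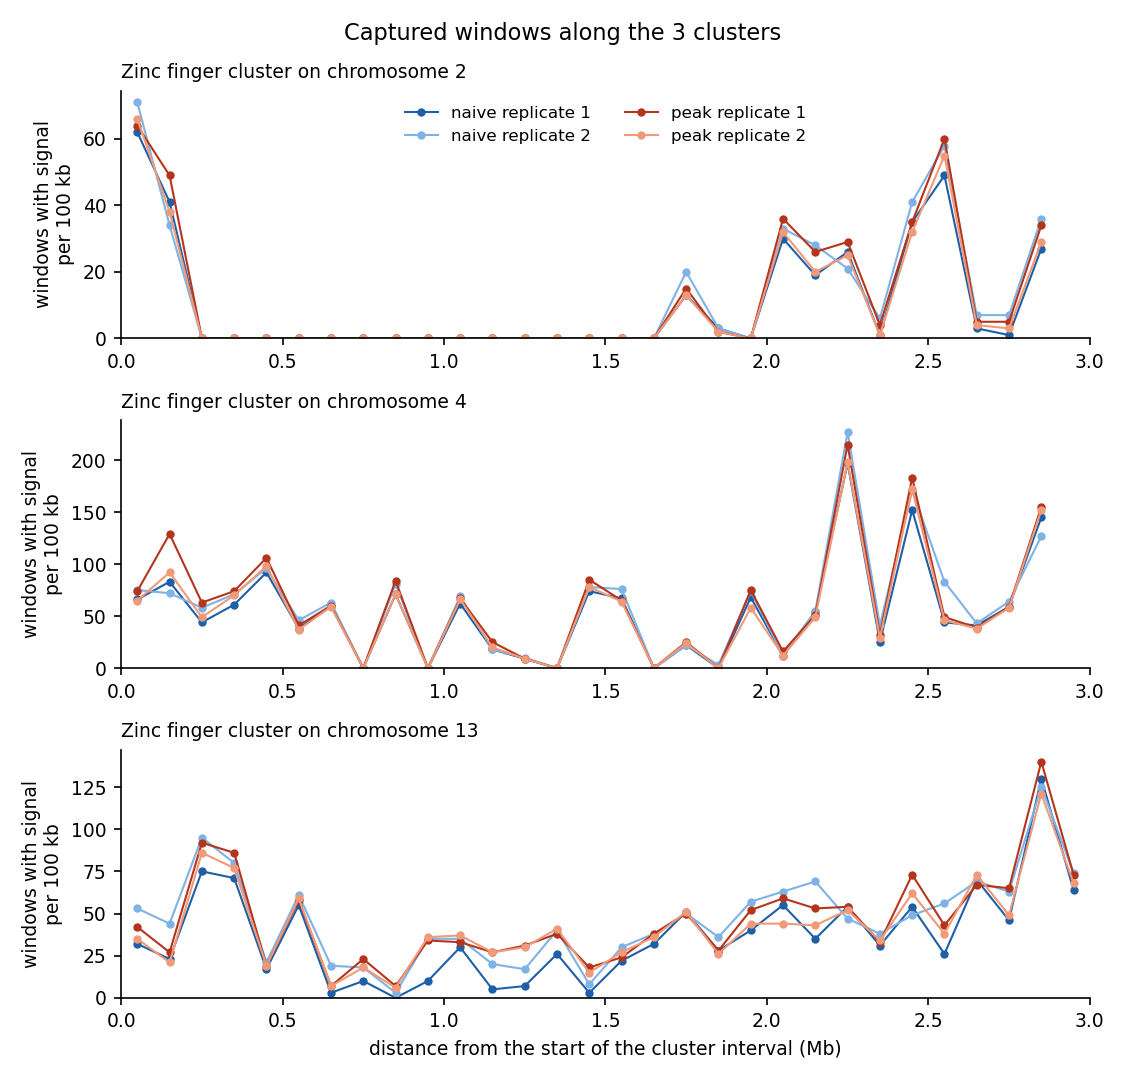
Number of windows with a value per 100 kb bin (vertical axis) along each cluster (horizontal axis, distance from the start of the interval in Mb), 1 line per library. The 15 empty bins of the chromosome 2 cluster appear as the flat stretch at 0, and the 4 libraries largely rise and fall at the same places.

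Signal in the chromosome 4 cluster was spread over several separate bins. The highest bin of all 3 clusters, chr4:147200001-147300000 within the gene model of Zfp978, had 4187 and 11203 in naive and 2054 and 4466 in peak libraries. Its naive libraries bracketed peak replicate 2, and naive replicate 2 stood far above the rest. The bin chr4:145800001-145900000, which overlaps no protein-coding gene, had 1348 and 5557 against 744 and 1836. By contrast, chr4:147400001-147500000 in Zfp982 had 2154 and 2360 against 1870 and 2103, nearly the same in all 4 libraries. The 2 lowest bins with signal on chromosome 4 reached at most 41.8 in any library.

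The highest bin on chromosome 2, chr2:175000001-175100000, overlaps the protein-coding models Gm14444, LOC115489542 and Gm14393 and had 1005 and 3243 against 403 and 1170. Between it and the empty stretch lies the bin chr2:175100001-175200000, which also carried signal. The next, chr2:177500001-177600000, had 641 and 1322 against 337 and 719. On chromosome 13, chr13:67800001-67900000, which overlaps Zfp273, Gm10037 and BC048507, had 1116 and 1777 against 860 and 1007, and chr13:67900001-68000000 had 675 and 1690 against 408 and 788. In each of these bins peak replicate 1 was lowest and naive replicate 2 highest; in chr13:67800001-67900000 both peak libraries lay below both naive ones.

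Single windows showed the same order. The window with the highest mean, chr4:147219501-147219550 in Zfp978, had 114 and 535 in naive and 29.8 and 124 in peak libraries. The highest on chromosome 2, chr2:175044401-175044450 in LOC115489542, had 37.5 and 213 against 13.2 and 37.6. The highest on chromosome 13, chr13:65519051-65519100, lies 5852 bp from Gm10139 and had 42.0 and 170 against 13.2 and 55.5. In all 3, naive replicate 2 stood apart and peak replicate 1 was lowest, and naive replicate 1 lay just below peak replicate 2.

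Zinc finger genes differed widely in captured signal over the whole gene. On chromosome 2 only Zfp970 carried a window, with 0.236 and 0 per kb in naive and 1.66 and 0 in peak libraries. On chromosome 4, 16 of 18 genes carried one, led by Zfp978 (17.7 and 50.9 against 9.25 and 20.1 per kb), Zfp982 (22.2 and 27.6 against 19.7 and 22.7) and Zfp981 (14.7 and 38.9 against 8.21 and 14.5). Zfp987 and Rex2 had no window, and Zfp534 had a value in peak replicate 2 alone (0.345 per kb). The gene model of Zfp978 spans 267 kb and covers Zfp991 and Zfp988, so its signal is not its own alone. Zfp981 overlaps the gene model of Zfp993, and the 2 genes share signal. On chromosome 13, 25 of 28 genes carried a window, with Zfp87 (4.56 and 7.45 against 14.2 and 4.53 per kb), Zfp369 (4.54 and 13.7 against 4.69 and 7.56) and Rslcan18, a paralog of Rsl1 (6.00 and 5.14 against 12.1 and 3.75), at the top. The chromosome 13 genes without a window were Zfp456, Zfp640 and Zfp738. Both peak libraries lay below both naive ones at Zfp981, and naive and peak values overlapped at Zfp978, Zfp982, Zfp87, Zfp369 and Rslcan18.

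The last 3 kb of zinc finger genes carried little captured signal in the clusters. Which part of a gene encodes the fingers was not read here. Only protein-coding genes whose strand was known from a matched promoter were used, 42 of them zinc finger genes of the clusters. Left out for want of a strand were Zfp978, Zfp990, Zfp991, Zfp992, Zfp369, Zfp87, Zfp729b and Zfp493, all with a window in the gene. Over the last 3 kb of the 42 the mean value per kb was 0.775 and 0.968 in naive and 1.34 and 1.17 in peak libraries. Over the same part of 347 zinc finger genes elsewhere it was 41.3 and 85.6 against 29.4 and 46.5, and over 16024 other genes 23.1 and 37.2 against 19.99 and 24.7. Zinc finger genes elsewhere were thus 21.9-fold to 88.5-fold higher, depending on the library, in 4 of 4 libraries (exact sign-flip permutation test over libraries, two-sided, p = 0.125, the smallest that 4 libraries allow). These means rest on a part of the genes: the median over zinc finger genes elsewhere was 4.16 and 4.65 against 10.5 and 4.98 per kb, near the 4.16 and 4.26 against 8.83 and 3.54 of other genes, and the median over the cluster genes was 0 in each library. This comparison was chosen after the data were seen. A window lay in the last 3 kb of 14 of 42 cluster genes (33.3%), 76.7% of zinc finger genes elsewhere and 71.9% of other genes.

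The difference was also present among cluster genes that carried signal. A window elsewhere in a gene does not show that reads could be placed in its last 3 kb. The part of reads with several matches in this difference was not tested, so little signal there is not described as little methylation. Of the 42 cluster genes with a known strand, 32 had a window anywhere in the gene. In these, the last 3 kb held 1.02 and 1.27 against 1.76 and 1.54 per kb, and 14 of 32 had a window there (43.8%). The highest of the 42 by this measure was Zfp729a, with 9.08 and 11.2 against 10.8 and 26.1 per kb. Rslcan18 followed with 10.2 and 1.55 against 22.4 and 5.72. Both lie on chromosome 13. None of the 6 chromosome 2 genes had a window in its last 3 kb. In 43 other protein-coding genes of the intervals with a known strand the last 3 kb had 13.6 and 23.2 against 9.08 and 12.99 per kb. A window lay there in 6 of them.

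Gene starts did not stand apart in this way. The region from 1000 bp before to 500 bp after the start was read in the same 42 cluster genes with a known strand. They had 4.70 and 4.79 per kb in naive and 4.13 and 2.13 in peak libraries. Zinc finger genes elsewhere had 4.89 and 8.40 in naive and 5.22 and 5.15 in peak libraries (1.04-fold to 2.42-fold higher elsewhere). With genes named Zfp and a number alone the lowest of these ratios was 0.920. The cluster mean rests on few genes: 8 of 42 had a window there, and Zfp953 alone had 133 and 171 against 59.6 and 63.1 per kb. In the same gene sets, zinc finger genes elsewhere were 7.001-fold to 13.4-fold higher over whole genes. Over the 3 kb past the gene end they were 2.98-fold to 3.63-fold higher.

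**Figure D3:**
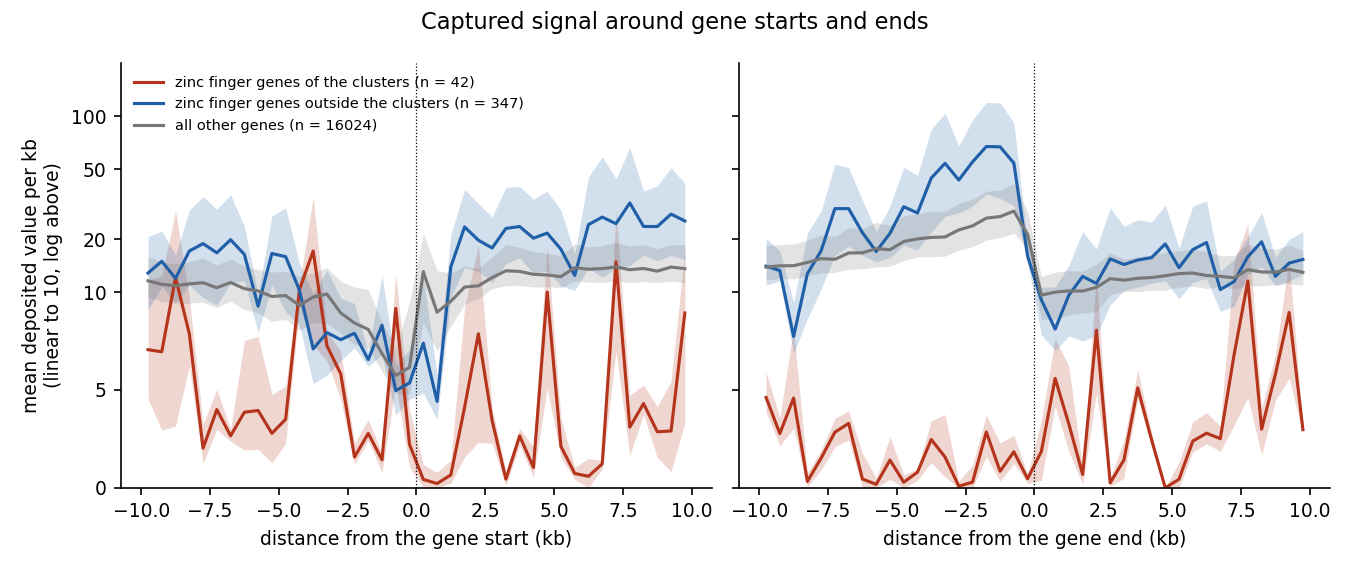
Mean deposited value per kb (vertical axis, linear to 10 and logarithmic above) in 500 bp steps around gene starts and gene ends (horizontal axes, kb along the gene's strand) for zinc finger genes of the clusters, zinc finger genes elsewhere and all other genes, each set limited to protein-coding genes with a known strand. Lines are the mean of the 4 libraries and bands their range. Signal of zinc finger genes elsewhere climbs towards the gene end, and that of the cluster genes does not.

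Set against the rest of the chromosome, every cluster had lower mean ratios at peak than in naive cells, with sizes that depended on single libraries. For windows per Mb the log2 difference of the ratios was -0.13 on chromosome 2, -0.12 on chromosome 4 and -0.062 on chromosome 13. Naive and peak ratios did not overlap on chromosomes 2 and 4 and overlapped on chromosome 13 (exact permutation tests, two-sided, p = 0.333, 0.333 and 0.667, where 0.333 is the smallest that 2 against 2 libraries allow). The separation was narrow. Naive replicate 1 and peak replicate 2 had ratios of 0.1362 and 0.1351 on chromosome 2 and 0.6283 and 0.6279 on chromosome 4. How often other regions separate in this way was not tested. For the value per Mb the differences were -0.71, -0.49 and -0.13, and for the mean value of a window -0.58, -0.37 and -0.073, all with overlapping libraries (exact permutation p = 0.667 each). Leaving out 1 library in turn, the windows per Mb difference ran from -0.21 (without naive replicate 1) to -0.061 (without naive replicate 2) on chromosome 2 and from -0.18 (without peak replicate 2) to -0.056 (without peak replicate 1) on chromosome 4. The value per Mb difference ran from -1.13 (without peak replicate 2) to -0.30 (without peak replicate 1) on chromosome 2 and from -0.79 (without naive replicate 1) to -0.18 (without naive replicate 2) on chromosome 4. That of the mean window ran from -0.94 (without peak replicate 2) to -0.21 (without peak replicate 1) and from -0.62 (without naive replicate 1) to -0.12 (without naive replicate 2). All of these stayed below 0. With at least 5 reads per window the windows per Mb differences were -0.46 and -0.32. The chromosome 13 differences turned to 0.071 and 0.064 for windows and value per Mb without naive replicate 2. Without peak replicate 1 they were 0.020 and 0.069, and 0.049 for the mean window.

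In the unpaired tests between conditions no window or bin of the clusters was called. Of the 4400 windows 1710 had at least 20 recovered reads and were tested among 936715, and limma called 0 of them at an adjusted p under 0.05 (0% of all tested windows were called). At an unadjusted p under 0.05 there were 139 of the 1710 members (8.13%), against 4.57% of all tested windows. With edgeR 0 members were called, and 147 of the 1710 were under an unadjusted p of 0.05, against 50940 of all 936715 windows. The median log2 difference of the members was -0.46, against -0.09 over all tested windows. Leaving out naive replicate 1 gave 97 called members, 29 higher and 68 lower at peak, where 24701 higher and 9498 lower were called among all 936715 windows. Leaving out naive replicate 2 gave 3 called members, all higher, of 33 called windows in all.

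Among the windows with the smallest p in each direction and cluster, 4 lay in zinc finger genes. In Zfp729a, chr13:67628501-67628550 had 2.27 and 4.65 in naive and 22.4 and 15.5 in peak libraries. In Zfp982, chr4:147488601-147488650 had 5.68 and 1.16 against 19.04 and 12.2. Within the 479 kb model of Zfp993, chr4:146565001-146565050 had 14.8 and 19.7 against 0.828 and 5.72, and this window also lies in Vmn2r-ps16 and Gm13237. These 3 windows were picked by their p, so the separation of their naive and peak libraries is no further evidence of a difference. Their log2 differences were 2.19 (SE 0.60), 2.10 (SE 0.65) and -2.37 (SE 0.66), each with an adjusted p of 0.818 (limma). The fourth, chr4:147490051-147490100 in Zfp982, had 12.5 and 0 against 28.2 and 11.4, which overlap.

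In 100 kb bins, 67 of the 88 cluster bins were tested among 23916 and limma called 0 (0% of all tested bins). At an unadjusted p under 0.05 there were 16 of 67 (23.9%), 9 of them on chromosome 4, against 4.55% of all tested bins. With edgeR 0 cluster bins were called, and 8 of the 67 were under an unadjusted p of 0.05, against 1275 of all 23916 bins. The median log2 difference was -0.47 in the cluster bins and -0.26 over all tested bins, and 76.1% of cluster bins and 76.3% of all tested bins were below 0. The smallest adjusted p was 0.306 (limma), for chr2:175000001-175100000, with a log2 difference of -1.39 (SE 0.36). Without naive replicate 1, 24 cluster bins were called, all lower at peak, as were 4224 of all 23916 bins, with 10 called higher.

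Over whole genes, 37 zinc finger genes of the clusters had enough reads, among 31490 genes, and limma called 0 (0.00318% of all tested genes were called). Only Zfp58 was under an unadjusted p of 0.05, against 3.41% of all tested genes. With edgeR 0 of the 37 were called and 4 were under an unadjusted p of 0.05, for which the share over all genes is not given here. Zfp58, named here because of its p, had 1.86 and 0.449 per kb in naive and 7.68 and 3.23 in peak libraries (log2 difference 1.57, SE 0.60, adjusted p = 0.944, limma).

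In RNA-seq, the zinc finger genes of the 3 clusters were transcribed at very different levels. On chromosome 2, 6 of 7 had 10 or fewer counts over both libraries and Zfp970 had 385 naive and 407 peak counts. On chromosome 4, 12 of 18 had 10 or fewer counts, among them Zfp978, Zfp981 and Zfp982, the genes with the most captured DNA. On chromosome 13 only 3 of 28 had 10 or fewer. The most abundant there per length were Zfp729b (16.2 naive and 11.2 peak FPKM), Zfp748 (15.4 and 9.66), Zfp87 (13.6 and 8.53) and Zfp729a (11.3 and 7.66), and on chromosome 4 Zfp984 (5.40 and 7.78), Znf41-ps (4.90 and 7.98), Zfp991 (4.48 and 8.04) and Zfp933 (4.06 and 3.74). Zfp456 (641 peak counts) and Zfp738 (861 peak counts) on chromosome 13 were transcribed without a captured window in the gene. Close paralogs may share reads, so single values are uncertain, most of all on chromosome 2.

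Most transcribed zinc finger genes had higher levels in the peak library on chromosome 4 and lower levels on chromosome 13. With 1 library per condition this has no replicate check, and intervals are exact (Clopper-Pearson) 95% intervals of counting error only. The share of all genes with intervals that leave out 1 is not given here. Of 6 chromosome 4 genes with at least 50 counts, 4 had a log2 ratio above 0 (49.8% of all 14367 genes) and 1 was at least 2-fold higher (11.6% of all genes). That gene was Zfp992, with 361 naive and 809 peak counts (2.04-fold, interval 1.80 to 2.32). Zfp991 (409 and 857 counts), Znf41-ps (370 and 704) and Zfp984 (492 and 828) followed at 1.91-fold, 1.73-fold and 1.53-fold higher. The intervals of these 4 genes lay above 1, and Zfp933 (542 and 584 counts) was near equality. Zfp992 came to 1.03 on the log2 scale and to 0.94 with library totals and 0.89 with upper quartile scaling, under 2-fold.

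Of 24 chromosome 13 genes with at least 50 counts, 22 had a ratio below 0 (50.2% of all genes), with a median log2 ratio of -0.43. The counting intervals of 18 lay wholly below equality, a count without its share over all genes. At least 2-fold lower were 2 of the 24 (9.35% of all genes): Zfp874b with 955 naive and 455 peak counts (2.31-fold lower, interval 2.06 to 2.58) and Zfp874a with 690 and 360 (2.10-fold lower, 1.85 to 2.40). Zfp493 (367 and 217 counts), Zfp369 (1423 and 904) and the more abundant Zfp748 (2400 and 1755) were 1.86-fold, 1.73-fold and 1.503-fold lower. Rsl1, a repressor of male-specific liver genes, had 443 and 424 counts. Zinc finger genes elsewhere had a similar balance, with a median of -0.33 over 370 genes and 79.7% below 0. Other scalings gave medians for chromosome 13 from -0.42 to -0.56 while the median of all genes ranged down to -0.14.

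**Figure D4:**
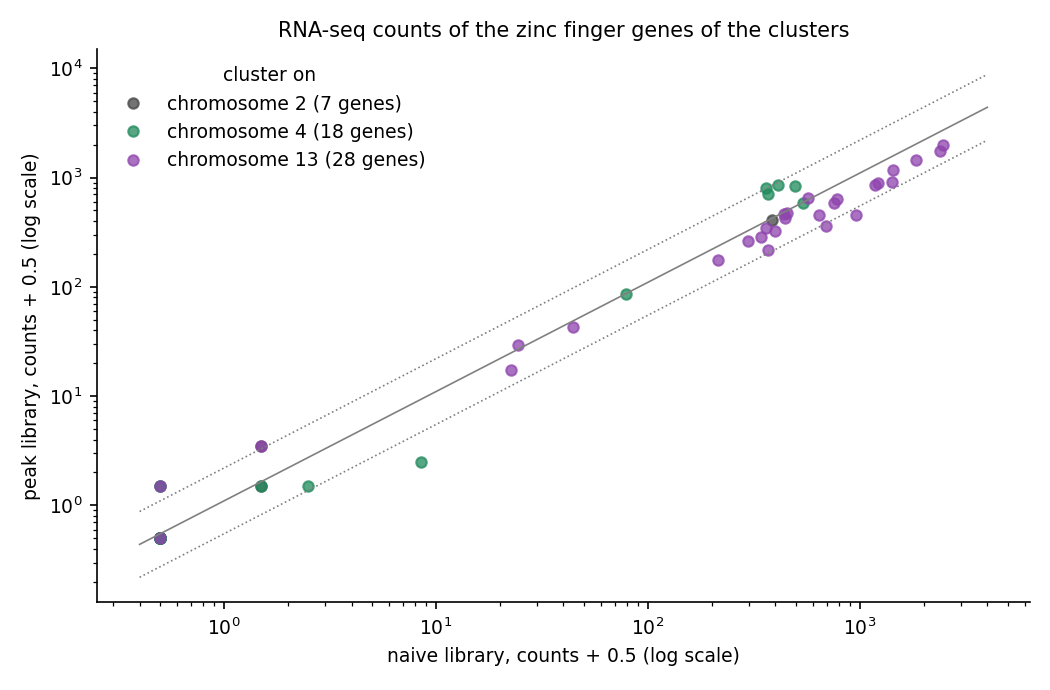
RNA-seq counts plus 0.5 of the 53 zinc finger genes in the naive (horizontal axis) and peak library (vertical axis), both on log scales, 1 point per gene, coloured by cluster; the solid line marks an equal level after TMM scaling and the dotted lines 2-fold differences. Most chromosome 13 genes lie under the solid line and 4 of the well-transcribed chromosome 4 genes above it, while most chromosome 2 genes sit near 0 counts.

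At the genes with the largest RNA ratios the captured DNA of the gene was as follows. Zfp992 had 4.67 and 4.55 per kb in naive and 7.42 and 4.28 in peak libraries. Zfp874b had 1.31 and 2.52 against 3.43 and 1.61, and Zfp874a 3.45 and 5.40 against 6.81 and 3.36. The naive and peak libraries overlapped at all 3 genes.

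Of the genes through which KRAB proteins act, most differed less than 2-fold between the RNA-seq libraries. Of 35 names listed for KRAB corepressors and heterochromatin, 30 were found, and 7 were at least 2-fold higher and 0 lower in the peak library (11.6% and 9.35% of all genes), with a median log2 ratio of 0.23. The corepressor Trim28 had 7274 naive and 8081 peak counts (log2 ratio 0.016), and Setdb1, the histone H3 lysine methyltransferase it recruits, 5105 and 4233 (-0.41). Those past 2-fold were Uhrf1, which recruits the maintenance DNA methyltransferase, with 79 and 1993 counts, the chromatin remodeller Hells with 77 and 989, Suv39h2 with 47 and 161, Cbx5, which encodes a heterochromatin protein, with 1667 and 5494, Mbd2, a methyl-CpG binding protein gene, with 935 and 2414, Setdb2 with 349 and 848, and the histone chaperone gene Daxx with 1043 and 2331. Dnmt1, the maintenance methyltransferase gene, had 2214 and 4460 counts.

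Other genes of the intervals included well expressed ones. Tnfrsf1b on chromosome 4, which encodes TNF receptor 2, had 14709 naive and 10701 peak counts and 123 and 76.7 FPKM. Fv1, a restriction gene against murine leukaemia virus derived from an endogenous retrovirus, had 149 and 149 counts, and Miip 990 and 1833. On chromosome 13, Ptdss1 (phosphatidylserine synthase) had 2730 and 2819 counts, Mfsd14b 2973 and 3487 and the pseudogene Gm9625 597 and 1507. On chromosome 2, Gm14325 had 212 and 244 counts, Gm14403 173 and 123, and the pseudogene Gm14414 49 and 656, a log2 ratio of 3.59; reads of pseudogenes can come from near-identical copies elsewhere. Past the 50-count minimum were 28 such genes, with a median log2 ratio of 0.29. Of these, 4 reached 2-fold higher (14.3%, against 11.6% of all genes) and 1 reached 2-fold lower (3.57%, against 9.35% of all genes).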

How the data were processed

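MiGS files hold, per the file headers and values, a scaled signal per 50 bp window as the authors deposited it. Each library's values are whole multiples of 1 step (100% of values, tolerance 0.001), from which reads were recovered. RNA-seq files hold raw counts per gene and the authors' FPKM, as deposited; 506 rows of 42303 without a symbol stayed out of named genes. Bowtie2, TopHat, featureCounts, edgeR and build mm10 are named in the submitters' processing notes; the sources used here give no roles, versions or treatment of reads with several matches. Groups come from the sample titles. Nothing in the titles says whether the MiGS libraries are separate pools, so p-values reflect only the spread of these libraries, possibly technical.

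The rest of a chromosome ran from its first to its last window, without chr2:98600001-98700000 and the cluster. Windows, 100 kb bins and whole genes with at least 20 recovered reads were tested on log2(value + 1) with limma 3.58.1 (variance trend, two-sided, Benjamini-Hochberg over all tested features at 0.05); windows with over 2000 reads were set aside in bins and genes. Differences on this scale understate low values. On recovered reads, edgeR 4.0.16 with TMM was an alternative. RNA-seq counts were scaled by TMM, with 0.5 added for log2 ratios, among genes with at least 50 counts; 1 library per condition gave no test. All 53 zinc finger genes matched the RNA-seq table. Runs of a median of 4 windows mean that neighbouring tests are not independent. Steps were tested on simulated data. Other tools were R 4.3.3, DESeq2 1.42.0, Python 3.11.15 and scipy 1.17.1.

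Members, gene lists and tests were chosen with earlier results of these data known. Named windows had the 3 highest means and the 2 smallest p per direction in each cluster, named bins the 2 highest and 2 lowest, and named genes the 3 highest and 3 lowest captured values per kb, the 4 most abundant and the 4 largest RNA ratios, of which a selection is printed. The finger count of that rule was not applied, since no protein table was used here.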

Additional observations from a re-analysis of the deposited data

How the results depend on the processing

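Of 235 recomputed values, 11 turned direction, and 17 others moved by more than the spread of the libraries or, for counts, by over 1.5 times; the differences between conditions often changed in size without turning. With the replicate number of the titles as a block, whose meaning the labels do not give, limma called 274 cluster windows (5 higher, 269 lower; 2469 higher and 67651 lower among all windows), 0 bins and 2 zinc finger genes (969 higher and 1409 lower among all genes). With the block, edgeR, added after seeing the data, called 215 windows (3063 higher and 46157 lower in all), 10 bins (391 and 799) and 3 genes (102 and 1346). Each cluster ratio was lower in the peak than in the naive library of the same number. Deviations of same-numbered libraries correlated at 0.398 over windows, 0.332 over genes and -0.129 over bins; the crossed pairing, also added, called 0 bins. Leaving out 1 library in turn gave 0 to 97 called windows and 0 to 24 called bins; the lone library of a condition is then assumed to vary like the others.

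For windows per Mb the chromosome 2 ratio was 0.168 with at least 5 reads per window, 0.0927 with bounds moved in by 200 kb, and 0.306 in bins with a window; on chromosome 4 it was 0.751, 0.568 and 0.722. The value per Mb ratio became 0.418 on chromosome 2 in bins with a window. On chromosome 4 it passed 1 in that setting (1.13), with at least 5 reads (1.06) and with lengths from base 1 (1.002), and ran from 0.847 to 1.09 when libraries were left out. Against the rest of chromosomes 1 to 19 the chromosome 13 ratios were 0.377 for value per Mb and 0.761 for the mean window. Its peak against naive difference of the mean window became 0.055 with at least 5 reads. Leaving out 1 library, the chromosome 13 differences ran from -0.19 to 0.071 for windows per Mb, -0.34 to 0.069 for value per Mb and -0.20 to 0.049 for the mean window. RNA-seq counts past 2-fold stayed between 2 and 4 genes over the scalings and minimums tried. The cause of these changes was not tested.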
